A study of Mus musculus with 9 samples.

Results

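The mitochondrial ribosomal protein genes are the nuclear genes whose symbols begin with Mrpl (large subunit) or Mrps (small subunit) followed by a digit. They were found by symbol among the probe sets that name 1 gene, and each gene was represented by its brightest probe set. The rule gave 76 genes of the 18193 named on the array, 47 of the large and 29 of the small subunit, and all 76 passed the filter on low signals. Messenger RNA was measured on 9 Affymetrix mouse arrays in cardiac ventricles of male fetuses at stage E18.5, shortly before birth. The fetuses were wild-type for Esrrg, the gene of estrogen-related receptor gamma (ERRg +/+, here WT), carried 1 disrupted copy (ERRg +/-, HET) or had no intact copy (ERRg -/-, KO), with 3 arrays of each genotype. The labels name no agent, and strain and allele design are not given in the sources used here. An array may have held 1 ventricle sample or a pool of 3, which the labels leave unclear, so each p-value reflects array-to-array spread in this set. Comparing the genotypes asks if transcripts of mitochondrial ribosomal proteins differ without ERRγ or with a single copy.

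The mitochondrial ribosome translates the messenger RNAs of the mitochondrial genome, which encode core subunits of the respiratory chain and of ATP synthase. Its small subunit decodes the messenger RNA, its large subunit joins the amino acids, and all of its proteins are made in the cytosol from nuclear genes and imported. The heart is rich in mitochondria, and ERRγ is an orphan nuclear receptor with many known targets among genes of mitochondrial energy metabolism.

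Esrrg, the targeted gene, read 281, 213 and 206 on the WT arrays, 162, 164 and 162 on the HET arrays and 58.3, 58.1 and 39.3 on the KO arrays (linear array signal), and no array of one genotype overlapped with another genotype. The KO minus WT difference was -1.88 ± 0.19 on the log2(signal + 16) scale (± SE, n = 3 arrays a genotype, limma adjusted p = 0.00018), and an exact two-sided permutation test of 3 arrays against 3 gave p = 0.1, the smallest it allows. The arrays fell into 2 groups in the poly-A spike-in controls, RNAs of known amount that are added before labelling. The log2 ratio of the thr to the dap spike-in lay from -0.67 to -0.43 on the 3 WT arrays and HET replicate 1, and from -1.09 to -0.89 on HET replicates 2 and 3 and the 3 KO arrays. WT lay wholly in the first spike-in group and KO wholly in the second, so a KO minus WT difference and a difference between the spike-in groups can be told apart only through the HET arrays, of which 1 lies in the first group. The 8 cardiomyocyte markers Myh6, Myh7, Tnnt2, Actc1, Myl2, Myl3, Ryr2 and Pln all read strongly, with the lowest mean at 1665 (Ryr2).

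The members gave strong signals in WT ventricle. Their WT means ran from 411 (Mrpl1) to 8233 (Mrpl42) with a median of 1595, and the filter lay at a signal of 21.7. A signal depends on the probes as well as on the transcript, so these values give no order of abundance. The spread between WT arrays was small, with a median coefficient of variation of 5.70% over the 76 genes, against 8.86% in HET and 5.02% in KO.

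The KO arrays carried slightly less messenger RNA of most of these genes than the WT arrays. Of the 76 members, 67 were lower in KO, with a median difference of -0.20 on the log2 scale, against 51.6% lower and a median of -0.0092 over all 13028 genes tested. The median KO mean was 86.6% of the WT mean, and the single genes ran from 71.4% to 115%. All 3 KO arrays lay below all 3 WT arrays for 47 members, where 13.9% of all genes tested did so. All 3 KO arrays lay above all 3 WT arrays for 2 members, Mrpl33 and Mrps2, against 11.1% of all genes. The test called 4 members lower (limma, Benjamini-Hochberg adjusted p under 0.05), Mrpl48, Mrpl21, Mrpl35 and Mrps35, where 0.883% of all genes were called lower. With the spike-in group as a block none of the 4 was called (limma adjusted p from 0.882 to 0.926), and the median of the 76 was -0.039. No member was called higher, where 0.737% of all genes were. At an unadjusted p under 0.05, 38 members were lower and 0 higher, against 9.28% and 7.91% of all genes. In bulk tissue, fewer cardiomyocytes and less RNA per cardiomyocyte cannot be told apart.

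**Figure D1:**
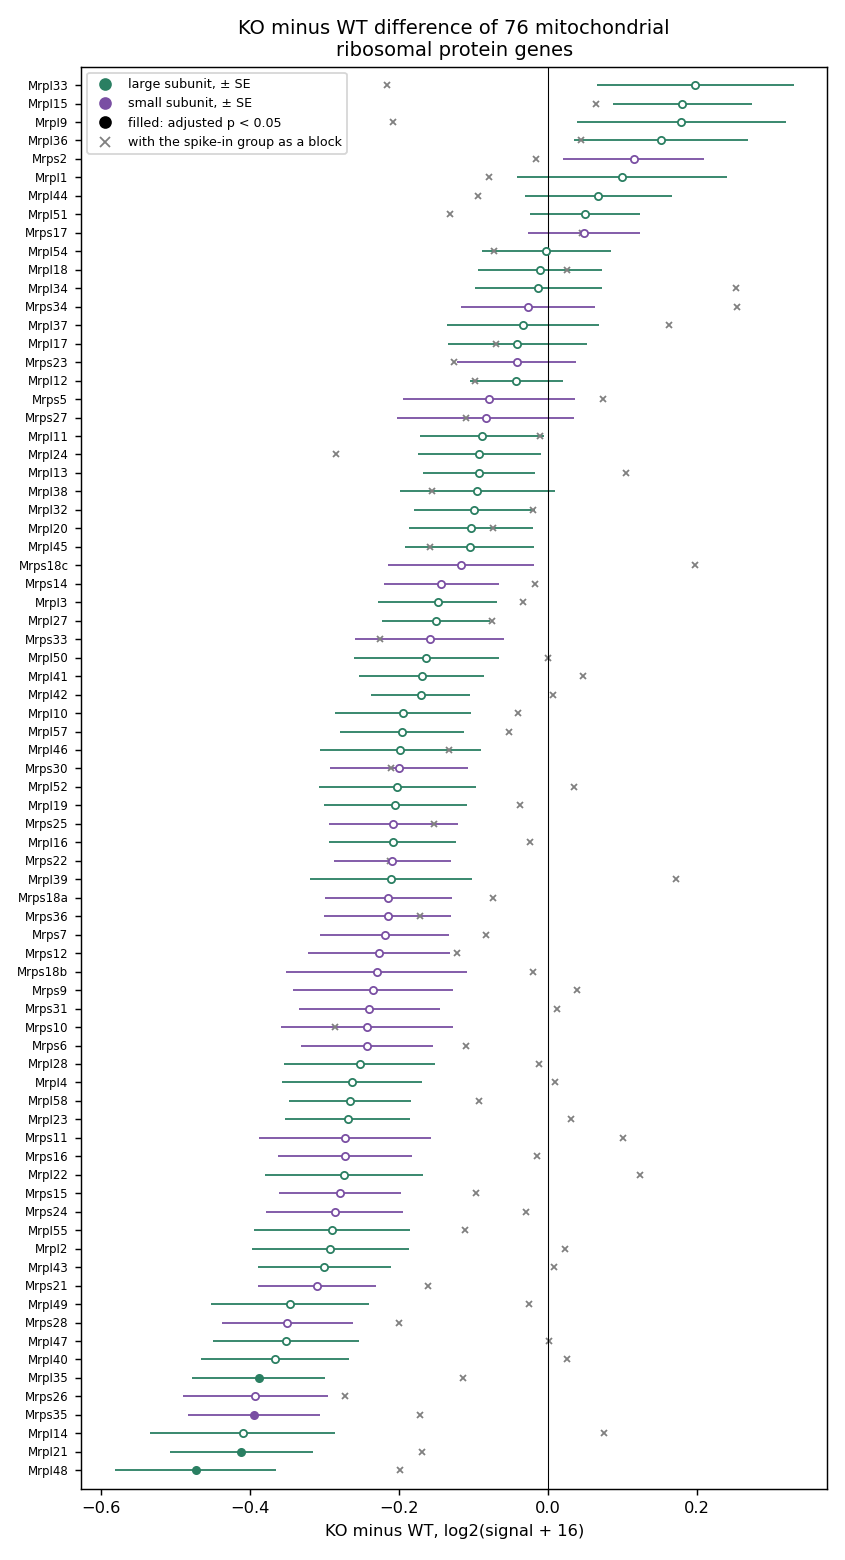
KO minus WT difference (log2(signal + 16), horizontal axis) of each of the 76 mitochondrial ribosomal protein genes, ordered by size, with bars for ± SE of the fit on 9 arrays, large-subunit genes in green and small-subunit genes in purple. Filled points are the 4 genes called lower, and grey crosses give each gene's difference with the spike-in group as a block; 67 of the points but 50 of the crosses lie left of 0.

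Members of both subunits were lower in KO. In the large subunit 40 of 47 genes were lower in KO with a median of -0.17, 3 were called, and 26 had KO arrays wholly below the WT arrays. In the small subunit 27 of 29 were lower with a median of -0.22, 1 was called, and 21 had KO arrays wholly below. Of all genes tested, 0.883% were called lower and 13.9% had KO arrays wholly below. With the spike-in group as a block 28 of 47 large-subunit genes (median -0.025) and 22 of 29 small-subunit genes (median -0.096) were lower, against 47.5% of all genes. Whether the subunits differed was not tested. Sorted by ancestry, 23 of 28 large-subunit proteins with a bacterial counterpart were lower (median -0.13, 2 called), as were 17 of 19 large-subunit proteins particular to mitochondria (median -0.20, 1 called). Of the small subunit, 14 of 16 with a bacterial counterpart were lower (median -0.24, none called) and 10 of 10 particular to mitochondria (median -0.21, 1 called). With the spike-in group as a block the class medians were -0.022, -0.053, -0.023 and -0.14, in the same order. Mrps18a and Mrps30, whose proteins sit in the large subunit in solved structures, and Mrps36, whose protein is now known as part of the 2-oxoglutarate dehydrogenase complex, stand outside these classes. By symbol all of them are counted among the 29 genes of the small subunit.

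Mrpl48 had the largest difference. Its protein belongs to the central protuberance of the large subunit, the crown that faces the small subunit. It read 1676, 1939.8 and 2239.6 on the WT arrays, 1748, 1421 and 1466 on the HET arrays and 1442, 1292 and 1448 on the KO arrays. HET replicate 1 lay within the WT range, and the other two HET arrays lay with the KO arrays. The means were 1952 ± 282 in WT, 1545 ± 178 in HET and 1394 ± 88.4 in KO (mean ± SD, n = 3 each), and the KO minus WT difference was -0.47 ± 0.11 (limma adjusted p = 0.0445, -0.20 with the spike-in group as a block).

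Mrpl21 and Mrpl35 encode large-subunit proteins with a bacterial counterpart. Mrpl21 read 1174, 1304 and 1329 on the WT arrays, 1248, 1019.9 and 1085 on the HET arrays and 907, 931 and 1011 on the KO arrays. Every KO array lay below every WT and every HET array, and HET replicate 1 again stood within the WT range. The KO minus WT difference was -0.41 ± 0.10 (limma adjusted p = 0.047, -0.17 with the spike-in group as a block). Mrpl35 read 2063, 2345 and 2166 on the WT arrays, 1999, 1624 and 1676 on the HET arrays and 1683, 1601 and 1722 on the KO arrays. HET replicate 1 lay just under the lowest WT array, and HET replicates 2 and 3 lay among the KO arrays. The KO minus WT difference was -0.39 ± 0.09 (limma adjusted p = 0.0446, -0.11 with the spike-in group as a block).

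Mrps35, a small-subunit protein with no bacterial counterpart, read 1909, 1959 and 2199 on the WT arrays, 1988, 1713 and 1691 on the HET arrays and 1599, 1455 and 1544 on the KO arrays. The KO arrays were the lowest of the 9, HET replicates 2 and 3 came next, and HET replicate 1 stood among the WT arrays. Its KO minus WT difference was -0.39 ± 0.088 (limma adjusted p = 0.0396, -0.17 with the spike-in group as a block), from 2022 ± 155 in WT to 1533 ± 72.8 in KO.

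**Figure D2:**
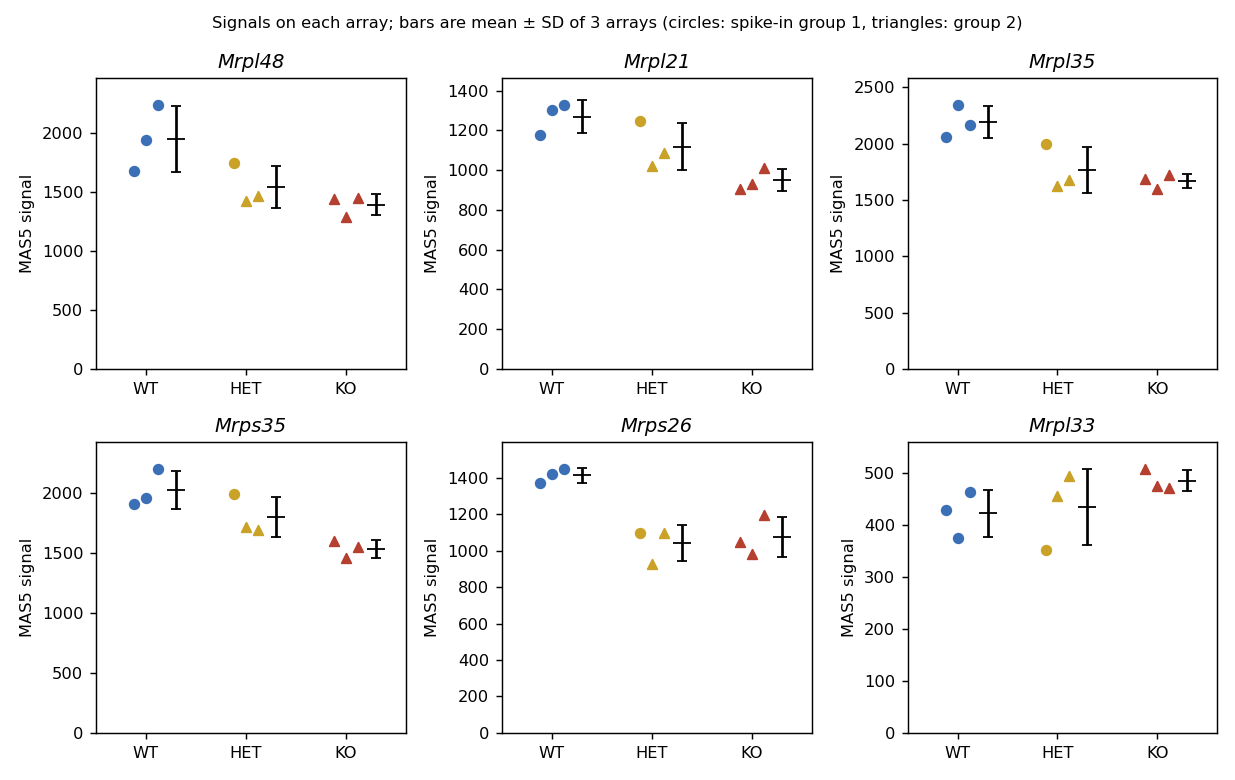
Array signals (vertical axis, linear MAS5 signal from 0) of Mrpl48, Mrpl21, Mrpl35, Mrps35, Mrps26 and Mrpl33 in WT, HET and KO, with circles for arrays of the first spike-in group, triangles for arrays of the second, and black bars for mean ± SD of 3 arrays. In Mrpl48, Mrpl21 and Mrps35 the HET circle stands within the WT range and the HET triangles stand lower, while in Mrps26 all 3 HET arrays stand below WT.

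Several further members had KO arrays wholly below WT without passing the test. Mrpl40, of the central protuberance, read 1910.2, 1835 and 1799 on the WT arrays, 1931, 1454 and 1481 on the HET arrays and 1437, 1373 and 1480.2 on the KO arrays. The HET arrays split widely here, with replicate 1 above every WT array and replicates 2 and 3 at the KO level. The KO minus WT difference was -0.37 (limma adjusted p = 0.0766). Mrpl47, at the exit of the peptide tunnel, read 2308, 2314 and 2145 on the WT arrays, 2073, 1661 and 1578 on the HET arrays and 1655, 1898 and 1744 on the KO arrays (difference -0.35, limma adjusted p = 0.08). All 3 HET arrays lay below WT for this gene, with replicate 1 nearest to it. Mrpl43, a protein particular to the mitochondrial large subunit, read 1943, 2013 and 1984 on the WT arrays, 1892, 1516 and 1535 on the HET arrays and 1589, 1566 and 1659 on the KO arrays (difference -0.30, limma adjusted p = 0.0966). The WT arrays lay close together, and HET replicate 1 again lay nearest to them.

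In the small subunit, Mrps26, Mrps28 and Mrps21 came next after Mrps35. Mrps26, particular to mitochondria, read 1369.8, 1421 and 1448 on the WT arrays, 1097, 925 and 1098 on the HET arrays and 1049, 982 and 1196 on the KO arrays. All 3 HET arrays and all 3 KO arrays lay below the lowest WT array, HET replicate 1 included, and the KO minus WT difference was -0.39 (limma adjusted p = 0.0565). Mrps28, the counterpart of a bacterial small-subunit protein, read 2233, 2252 and 2423 on the WT arrays, 2181, 1828 and 2112 on the HET arrays and 1746, 1701 and 1969.8 on the KO arrays (difference -0.35, limma adjusted p = 0.0578). Mrps21, which also has a bacterial counterpart, read 2201, 2355 and 2434 on the WT arrays, 2085, 1819 and 1940.5 on the HET arrays and 1784, 1903 and 1941 on the KO arrays (difference -0.31, limma adjusted p = 0.0625). For both genes all HET arrays lay below the lowest WT array, and the HET and KO arrays overlapped.

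None of the 12 members named for a known role was called between KO and WT, and their differences ran from -0.27 to 0.068. Mrpl3 lies near the catalytic centre of the large subunit, and mutations of the human gene cause infantile cardiomyopathy. Its difference was -0.15 ± 0.08. Mrpl44, also a human cardiomyopathy gene, stood at 0.068 ± 0.10. Mrpl12, a protein of the flexible stalk that recruits translation factors, read 5103, 5343 and 5496 on the WT arrays, 5031, 5311 and 5150 on the HET arrays and 5071, 5102 and 5304 on the KO arrays. The groups overlapped, and its difference was -0.042 ± 0.062. Mrpl45, which holds the ribosome at the inner membrane, stood at -0.10 ± 0.087.

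Among the members with Mrps symbols, Mrps12 of the decoding centre stood at -0.23 ± 0.10 and Mrps16, mutated in a human respiratory chain disorder, at -0.27 ± 0.09. For both, all KO arrays lay below all WT arrays. Mrps22, a human gene of mitochondrial cardiomyopathy, read 1517, 1561 and 1493 on the WT arrays, 1451, 1422 and 1487 on the HET arrays and 1322, 1385 and 1244 on the KO arrays. Its arrays were ordered by genotype with no overlap, WT highest and KO lowest, with a KO minus WT difference of -0.21 ± 0.079 (limma adjusted p = 0.174). The 3 relatives of a single bacterial protein stood at -0.21 ± 0.085 (Mrps18a), -0.23 ± 0.12 (Mrps18b) and -0.12 ± 0.10 (Mrps18c). Mrps30 stood at -0.20 ± 0.093 and Mrps36 at -0.22 ± 0.085.

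The members with the largest positive differences were Mrpl33, Mrpl15, Mrpl9 and Mrpl36, all of the large subunit with bacterial counterparts, and none was called. Mrpl33 read 428, 374 and 463 on the WT arrays, 352, 456 and 493 on the HET arrays and 508, 475 and 471 on the KO arrays. The KO arrays lay just above the highest WT array, HET replicate 1 was the lowest of the 9, and the difference was 0.20 ± 0.13 (limma adjusted p = 0.481). Mrpl15 stood at 0.18 ± 0.093, Mrpl9 at 0.18 ± 0.14 and Mrpl36 at 0.15 ± 0.12, with overlapping KO and WT arrays. Among the other members with very strong signals, Mrpl42, particular to mitochondria, read 7758, 8554 and 8386 on the WT arrays, 8294, 7218 and 7438 on the HET arrays and 7371, 7128 and 7416 on the KO arrays. Its KO arrays lay below WT, by -0.17 (limma adjusted p = 0.192). Mrpl51 stood at 0.05 ± 0.074 and Mrpl39 at -0.21 ± 0.11, and their KO and WT arrays overlapped.

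Array by array, the members' median on HET replicate 1 stood on the side of the WT arrays, and on HET replicates 2 and 3 with KO. Each gene was centred on its mean over the 9 arrays, and the median of the 76 genes was taken on each array. The 3 WT arrays stood at 0.077, 0.12 and 0.13 and HET replicate 1 at 0.056 (log2). HET replicates 2 and 3 stood at -0.11 and -0.048, and the KO arrays at -0.098, -0.075 and -0.048. All 4 arrays of the first spike-in group were thus above 0 and all 5 of the second below it, while the median of all genes tested stayed between -0.0090 and 0.035. The 0.035 belonged to HET replicate 1, and the all-gene medians of the WT arrays were 0.016, 0.016 and 0.021. The lowest array was HET replicate 2, which held the lowest value of the 9 for 22 members. WT replicate 3 held the highest for 27 members and WT replicate 2 for 24. HET replicate 1 lay nearer the WT mean than the KO mean for 52 of 76 members, HET replicate 2 for 11 and HET replicate 3 for 17, against 57.6%, 38.3% and 39.0% of all genes.

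**Figure D3:**
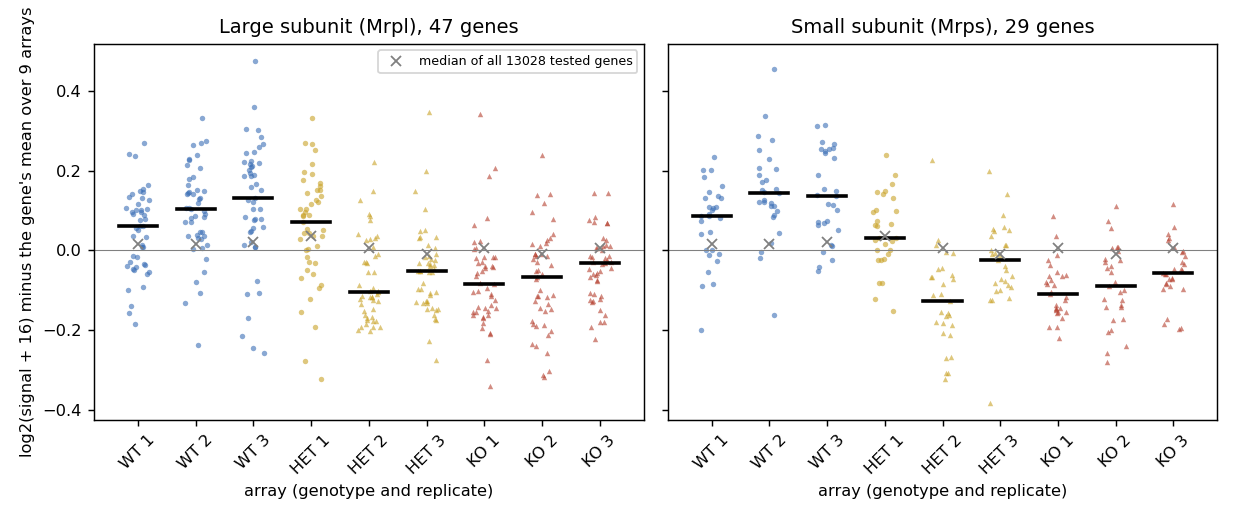
Level of each gene on each array relative to its mean over the 9 arrays (vertical axis, log2(signal + 16)), for the 47 large-subunit genes (left) and the 29 small-subunit genes (right), with black bars at the median of the genes, grey crosses at the median of all 13028 genes tested, circles for the first spike-in group and triangles for the second. The bars of WT and HET replicate 1 lie above 0 and those of HET replicates 2 and 3 and KO below it in both panels.

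Inside HET, most members were also lower on replicates 2 and 3 than on replicate 1, a single array. The mean of HET replicates 2 and 3 was below HET replicate 1 for 55 of 76 members, with a median of -0.15, against 55.7% and -0.047 over all genes. This difference shares no array with KO minus WT. Over the 76 members the pair of differences had the same sign in 64 and a Pearson r of 0.76, over all genes tested r was 0.21, and over the 4017 genes in the members' brightness range it was 0.64. These correlations are across genes, which share arrays and are not independent. With the spike-in group as a block, which rests on HET replicate 1, 50 of 76 members were lower in KO (47.5% of all genes), with a median of -0.039 (0.015 over all genes), and 0 members were called (limma, 0.00768% of all genes). At an unadjusted p under 0.05, 1 member was lower, Mrpl24 (-0.28, against 3.04% of all genes), and 1 higher, Mrpl34 (0.25). The blocked differences of Mrps22, Mrps30 and Mrps26 were -0.21, -0.21 and -0.27, against -0.21, -0.20 and -0.39 without the block, with limma adjusted p of 0.851, 0.877 and 0.851 under it. Within the second spike-in group alone, KO minus HET had a median of 0.00077 and 38 of 76 members lower (49.6% of all genes). Within the first, HET replicate 1 minus WT had a median of -0.054 and 54 lower (47.5% of all genes). The part of the spike-in groups in the lower KO levels cannot be told apart from genotype beyond these values.

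**Figure D4:**
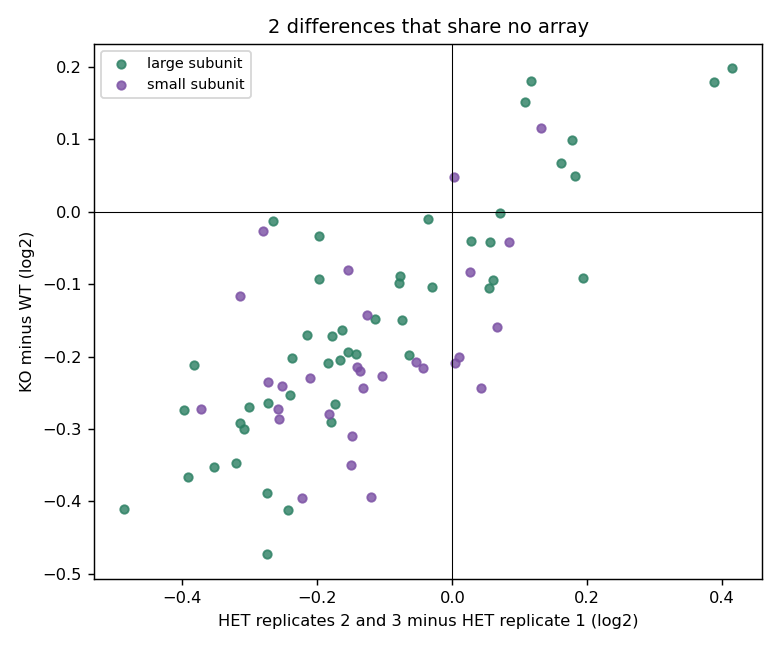
KO minus WT difference of each of the 76 genes (vertical axis, log2) against the difference between HET replicates 2 and 3 and HET replicate 1 (horizontal axis, log2), large-subunit genes in green and small-subunit genes in purple. The axes share no array, and 55 of the 76 genes lie at the lower left, below 0 on both axes.

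Strong signals as such also went with lower KO values. Among the 4017 tested genes within the members' range of mean signal, 61.0% were lower in KO with a median of -0.060, 2.12% were called lower, and 26.8% had KO arrays wholly below WT. Between the members' lower and upper quartile of signal lay 1117 genes, of which 64.8% were lower with a median of -0.084 and 31.7% were wholly below. The 38 members in that range had 36 lower, a median of -0.22 and 73.7% wholly below. The cytosolic ribosomal proteins, which build the ribosome of the cytosol, had 35 of 47 genes lower, a median of -0.091 and 19 genes wholly below. Their median was -0.021 with the spike-in group as a block (-0.039 for the members) and -0.015 with quantile normalization (-0.17 for the members). The test called 1 of them lower, Rpl37a (-0.32 ± 0.074, limma adjusted p = 0.0459, -0.013 with the spike-in group as a block), where 0.883% of all genes were. The summed signal of the 8 cardiomyocyte markers ran from 166120 to 176680 in WT, 150750 to 168080 in HET and 148860 to 164380 in KO. In KO 6 of the 8 were lower with a median of -0.15 (-0.0024 with the spike-in group as a block), none was called and none lay at 0. At an unadjusted p under 0.05, 5 were lower, against 9.28% of all genes. KO arrays lay wholly below WT for 4, against 13.9% of all genes. Of the fibroblast markers 5 of 6 were higher in KO (median 0.095, none called), and their summed signal ran from 30981 to 35937 in WT, 30712 to 35775 in HET and 35046 to 36275 in KO. Of the mural markers 3 of 5 were higher (median 0.24, none called), with sums from 14208 to 16271 in WT, 15677 to 17254 in HET and 15825 to 18380 in KO. Of the epicardial markers 3 of 4 were higher (median 0.19) and Tbx18, a transcription factor of the epicardium, was called (0.84 ± 0.17, limma adjusted p = 0.032, 0.23 with the spike-in group as a block), with sums from 544.5 to 834 in WT, 929 to 1116 in HET and 764 to 1051 in KO. Of the endothelial markers 4 of 6 were lower (median -0.028) and Kdr, a receptor for VEGF, was called (-0.74 ± 0.14, limma adjusted p = 0.0262, -0.25 with the block), with sums from 4216 to 4595 in WT, 3825 to 4569 in HET and 3949 to 4328 in KO. With the spike-in group as a block the medians were 0.23 for fibroblast, 0.21 for mural, 0.083 for epicardial and 0.16 for endothelial markers. Under the block 0 of 6 fibroblast and 1 of 6 endothelial markers were lower in KO. No atrial, immune or erythroid marker tested was called. The part of these cell types in the result was not tested.

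No member passed the test between HET and WT. In HET 64 of 76 members were below WT (50.9% of all genes), with a median of -0.13 (-0.0055 over all genes) and a median HET mean of 91.7% of WT. No member was called (limma, 0% of all genes), 21 were lower and 0 higher at an unadjusted p under 0.05 (5.9% and 5.6% of all genes). HET arrays lay wholly below WT for 20 members (7.41% of all genes) and wholly above for 2 (6.29%). Without HET replicate 1, 11 members were called lower, against 2.39% of all genes in that fit, so that array decides the count. With the spike-in group as a block the HET minus WT median was -0.054, and the HET minus WT and KO minus WT differences were not tested against each other. The smallest p belonged to Mrps26 (-0.44 ± 0.10, limma adjusted p = 0.285) and Mrpl47 (-0.36 ± 0.10, limma adjusted p = 0.293). The HET mean lay between WT and KO for 50 members, below both for 19 and above both for 7.

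No member passed the test between KO and HET either. Of the 76 members 50 were lower in KO than in HET (51.7% of all genes) with a median of -0.040, none was called (0.0154% of all genes were called lower), and 3 were lower at an unadjusted p under 0.05 and 0 higher (2.69% and 2.11% of all genes). The 3 were Mrpl46 of the central protuberance (-0.26 ± 0.11), Mrps35 (-0.22 ± 0.088) and Mrpl21 (-0.23 ± 0.10). Mrpl46 read 944, 918 and 1099 on the WT arrays, 1061, 1114 and 922 on the HET arrays and 899, 762 and 915 on the KO arrays, with the 3 KO arrays below every HET and WT array. KO arrays lay wholly below HET for 6 members and wholly above for 0, against 5.73% and 4.76% of all genes. Without HET replicate 1, and with the spike-in group as a block, the members' median was 0.00077. With each array shifted to the same median, the members' median turned to 0.039 and that of all genes to 0.071.

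The 4 calls between KO and WT were sensitive to single arrays. Leaving out HET replicate 1 gave 18 calls, all lower and the 4 among them, while the share of all genes called lower was 3.48%. Fitting only the 6 WT and KO arrays gave 17 calls, against 3.22% of all genes called lower. Leaving out WT replicate 1 left 1 call, and leaving out WT replicate 2 or 3 or any KO array left 0. The median of the 76 ran from -0.21 to -0.17 over these 9 fits, and the brightest probe sets of the 4 called genes stayed lower in KO in each of them.

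Other probe sets of the same genes followed the brightest in sign about as often as over all genes. Of the 76 genes, 42 had more than 1 probe set. A further 64 probe sets of 35 genes passed the filter, all weaker than the gene's brightest by the rule of choice. Of these 64, 33 had the same KO minus WT sign as the gene's brightest probe set (51.6%, against 54.0% over all genes) and 36 were lower, with a median of -0.052, against 43.2% lower and a median of 0.054 over all genes' further probe sets. Strong signals did not raise the agreement: 24 further probe sets were at least as strong as the weakest of the 76 brightest. Of those 24, 12 had the same sign (50%, against 56.3% over all genes at that level). The 24 held 13 that were lower (54.2%, against 48.4%). In 5 genes a further probe set went the other way at an unadjusted p under 0.05, namely Mrpl48, Mrpl13, Mrpl3, Mrpl44 and Mrps9. For Mrpl48 the brightest probe set and a weaker one, of the array maker's _x_at kind, opposed each other. The weaker one had means of 239 ± 24.0 in WT, 443 ± 82.4 in HET and 391 ± 37.8 in KO, a KO minus WT difference of 0.67 ± 0.15 (limma adjusted p = 0.0478 when every probe set was tested on its own). In that fit the brightest one stood at -0.47 with an adjusted p of 0.0586. That suffix marks probes that can also bind other transcripts. The other opposed probe sets stood at 0.55 (Mrpl13, -0.092 for the brightest), 0.38 (Mrpl3, -0.15), -0.27 (Mrpl44, 0.068) and 0.53 (Mrps9, -0.23), none of them called. Mrpl15, with 8 probe sets, was higher in KO in its 4 brightest, at 0.18, 0.21, 0.40 and 0.031. Tested one probe set at a time, 0 of the 140 member probe sets were called lower and 1 higher, against 0.331% and 0.459% of all probe sets.

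**Figure D5:**
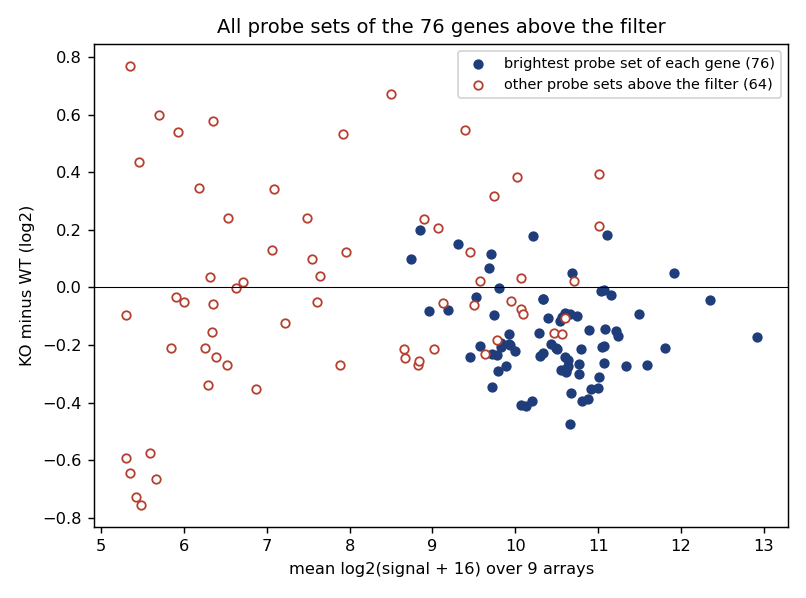
KO minus WT difference (vertical axis, log2) against mean log2(signal + 16) over 9 arrays (horizontal axis) for the 140 probe sets of the 76 genes above the filter. Filled points are the brightest probe set of each gene (76) and mostly lie below 0, while open points are the 64 others and lie on both sides.

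The rest of the mitochondrial translation apparatus was read from lists of genes. Ribosomal proteins under other symbols, Dap3, Ptcd3, Chchd1 and Gadd45gip1, were all lower in KO (4 of 4, median -0.21) and none was called. With the spike-in group as a block 3 of the 4 were lower (median -0.093). Ptcd3, a small-subunit protein at the entry of the messenger RNA, stood at -0.34 ± 0.091 (limma adjusted p = 0.075) and Dap3, a GTP-binding small-subunit protein, at -0.22 ± 0.093. Of 12 translation factors tested, 10 were lower (median -0.22). With the spike-in group as a block 9 were lower (median -0.18), against 50 of the 76 members (median -0.039). Without the block 1 was called, Tufm, the elongation factor that brings transfer RNAs to the ribosome, where 0.883% of all genes were called lower. Tufm read 2029, 2473 and 2265 on the WT arrays, 1604, 1184 and 1050.1 on the HET arrays and 1181, 1289 and 1584 on the KO arrays. WT stood apart from all other arrays, and HET replicate 1 was the highest of those. The KO minus WT difference was -0.74 ± 0.14 (limma adjusted p = 0.0262), and -0.22 with the spike-in group as a block (limma adjusted p = 0.894). The elongation factor Gfm1, which moves the ribosome along, stood at -0.32 ± 0.08 (limma adjusted p = 0.0582), and Oxa1l, which inserts new proteins into the inner membrane, at -0.35 ± 0.089 (limma adjusted p = 0.0591). Their blocked differences were -0.30 and -0.27. The initiation factor Mtif2 stood higher in KO, at 0.45 ± 0.12 (limma adjusted p = 0.078).

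Without a block, genes that build the ribosome or feed it with transcripts and charged transfer RNAs had KO minus WT medians nearer to 0. With the spike-in group as a block not all did. The medians were then -0.058 for assembly factors, 0.032 for transcript production and -0.051 for transfer RNA charging, against -0.039 for the 76 members. These differences between lists were not tested. Of 27 assembly factors tested, 14 were lower (median -0.013, none called). Mrm3, a methyltransferase of the large ribosomal RNA, read 592, 588 and 589 on the WT arrays, 588, 390.2 and 374 on the HET arrays and 412, 381 and 370.4 on the KO arrays. HET replicate 1 stood at the WT level and HET replicates 2 and 3 at the KO level, with a difference of -0.59 ± 0.14 (limma adjusted p = 0.0533) and 0.015 with the spike-in group as a block. The helicase Ddx28 stood at -0.60 ± 0.20. Of 10 genes of mitochondrial transcript production, 8 were lower (median -0.080, none called), with Tfam, which packages and transcribes mitochondrial DNA, at 0.32 ± 0.13 and Tefm, a transcription elongation factor, at -0.19 ± 0.13. Of 19 genes that charge mitochondrial transfer RNAs, 13 were lower (median -0.034, none called). Among those, Qrsl1 read 306, 385 and 302 on the WT arrays, 321, 685 and 644 on the HET arrays and 589.6, 679.7 and 545 on the KO arrays, with a difference of 0.84 ± 0.21 (limma adjusted p = 0.0572) that was -0.17 with the block. Ears2 stood at -0.39 ± 0.10 (limma adjusted p = 0.0595).

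Promoters were searched for sites of nuclear receptors and of factors known to drive mitochondrial genes. RefSeq windows of 300 bases on GRCm38.p6, from 250 before to 50 after the annotated start, covered 67 of the 76 genes in 73 windows. Searched on both strands were the ERR element TCAAGGTCA, its 7 last letters AAGGTCA (a nuclear receptor site contained in the longer one), GCGCATGCG for NRF1, CCGGAAGT for ETS factors such as GABP, AAGATGGCG for YY1 and the E-box CACGTG, which can share letters with AAGGTCA on the opposite strand. The ERR element was in 0 of the 73 member windows, against 0.423% of all 32851 windows and 0.291% of those of genes tested. The shorter AAGGTCA was in 5.48% of member windows, against 4.72% of all windows and 3.17% of those of genes tested. The NRF1 letters were in 9.59% (1.75% and 3.31%), the ETS letters in 16.4% (3.89% and 7.27%), the YY1 letters in 11% (1.4% and 2.68%) and the E-box in 9.59% (7.15% and 9.56%). Counted by gene, the E-box was in 7.46% of the members, against 8.09% of all genes and 11.4% of genes tested. These shares are descriptions of letters, and no window without a match says anything about a factor.

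The windows shown are the 4 that hold AAGGTCA, then those of Mrpl21, Mrpl35 and Mrpl48, which were called lower, and that of Mrpl42, with the strongest signal. Capitals mark every match to the letters searched, read 5′ to 3′ on the gene's strand.
Mrpl12: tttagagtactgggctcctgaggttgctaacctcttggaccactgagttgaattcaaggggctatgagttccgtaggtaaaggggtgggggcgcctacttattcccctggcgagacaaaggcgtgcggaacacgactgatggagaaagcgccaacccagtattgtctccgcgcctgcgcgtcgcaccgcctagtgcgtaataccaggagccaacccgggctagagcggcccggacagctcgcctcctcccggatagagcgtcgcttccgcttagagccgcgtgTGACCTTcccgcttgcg
Mrpl36: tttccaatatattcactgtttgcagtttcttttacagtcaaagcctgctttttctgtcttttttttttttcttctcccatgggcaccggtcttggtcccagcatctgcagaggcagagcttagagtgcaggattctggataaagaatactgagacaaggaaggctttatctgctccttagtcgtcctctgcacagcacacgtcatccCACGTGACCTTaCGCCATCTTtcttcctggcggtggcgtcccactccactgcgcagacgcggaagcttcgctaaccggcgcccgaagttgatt
Mrps15: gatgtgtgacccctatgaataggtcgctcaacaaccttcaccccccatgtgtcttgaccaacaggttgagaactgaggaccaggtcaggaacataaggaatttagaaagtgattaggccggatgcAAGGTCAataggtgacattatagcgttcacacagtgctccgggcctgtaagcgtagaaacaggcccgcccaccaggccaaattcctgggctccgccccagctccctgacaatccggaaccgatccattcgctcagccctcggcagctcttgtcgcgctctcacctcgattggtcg
Mrps21: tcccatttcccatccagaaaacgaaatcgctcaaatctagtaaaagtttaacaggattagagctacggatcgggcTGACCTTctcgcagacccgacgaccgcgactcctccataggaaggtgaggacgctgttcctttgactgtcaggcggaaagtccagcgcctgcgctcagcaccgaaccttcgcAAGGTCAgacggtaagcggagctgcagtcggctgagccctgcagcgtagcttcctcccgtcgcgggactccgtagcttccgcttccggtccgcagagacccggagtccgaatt
Mrpl35: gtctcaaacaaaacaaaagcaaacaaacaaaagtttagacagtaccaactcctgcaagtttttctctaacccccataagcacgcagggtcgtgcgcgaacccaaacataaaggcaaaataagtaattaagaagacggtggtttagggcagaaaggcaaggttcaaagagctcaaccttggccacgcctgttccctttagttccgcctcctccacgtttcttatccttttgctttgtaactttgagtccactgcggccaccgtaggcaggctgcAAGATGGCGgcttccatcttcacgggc
Mrpl42: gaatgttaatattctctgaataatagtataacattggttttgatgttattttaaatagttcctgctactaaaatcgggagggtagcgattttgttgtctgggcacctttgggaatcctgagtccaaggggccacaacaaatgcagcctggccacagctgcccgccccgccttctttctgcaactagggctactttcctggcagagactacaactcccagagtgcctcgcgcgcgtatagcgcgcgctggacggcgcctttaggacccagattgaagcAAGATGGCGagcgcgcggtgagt
Mrpl48: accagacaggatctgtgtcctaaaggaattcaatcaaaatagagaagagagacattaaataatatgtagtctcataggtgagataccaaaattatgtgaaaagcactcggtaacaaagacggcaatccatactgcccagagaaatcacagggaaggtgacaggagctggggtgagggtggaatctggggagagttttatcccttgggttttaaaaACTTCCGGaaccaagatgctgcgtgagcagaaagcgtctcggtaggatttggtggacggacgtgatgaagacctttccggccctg
Mrpl21: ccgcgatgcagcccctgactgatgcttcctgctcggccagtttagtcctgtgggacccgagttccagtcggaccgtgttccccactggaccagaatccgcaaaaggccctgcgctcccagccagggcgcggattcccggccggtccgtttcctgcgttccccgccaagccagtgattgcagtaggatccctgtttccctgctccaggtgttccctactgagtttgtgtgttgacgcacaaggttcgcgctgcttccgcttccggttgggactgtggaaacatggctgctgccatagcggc

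The Mrpl12 window lies at chr11:120484387-120484686 (plus strand) and holds AAGGTCA on the opposite strand, after the start. That of Mrpl36, at chr13:73330759-73331058 (plus strand), holds the E-box and AAGGTCA sharing 2 letters, then the YY1 letters. Mrps15, at chr4:126046678-126046977 (plus strand), holds AAGGTCA once, and Mrps21, at chr3:95871465-95871764 (minus strand), once on each strand. The 4 genes had KO minus WT differences of -0.042, 0.15, -0.28 and -0.31, with a median of -0.16 against -0.20 in the 63 members without the letters. Mrpl35, at chr6:71823735-71824034 (minus strand), and Mrpl42, at chr10:95501900-95502199 (minus strand), carry the YY1 letters after the start. Of the 8 members with the YY1 letters, 6 have them there, against 56.4% of the genes with them among all promoters and 61.4% among those of genes tested. For Mrpl48, which has 4 windows, the one shown lies at chr7:100583081-100583380 (minus strand) and holds the ETS letters. The other windows of Mrpl48 hold none of the letters searched. Mrpl21, at chr19:3282792-3283091 (plus strand), holds none of the letters searched. Median differences of members with the NRF1, ETS, YY1 and E-box letters were -0.19 (7 genes), -0.15 (12), -0.19 (8) and -0.10 (5), against -0.20, -0.21, -0.20 and -0.21 in the members without them, and no difference between these was tested.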

How the data were processed

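The authors deposited 1 intensity per probe set and array on a linear scale, made with MAS5 per the submitters' processing notes, in a version not given in the sources used. Every deposited column has a mean of 200 once 2% is trimmed at each end, so each array had been scaled to the same trimmed mean, and array medians ran from 36.6 to 45.9. The number of arrays limits the precision. Of 45101 probe sets, 64 are controls, 34945 name 1 gene by the platform annotation (updated by gene ID through a RefSeq table of GRCm38.p6), 932 several and 9160 none.

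All tests ran on log2(signal + 16), so that changes of dim genes come out too small. Each gene was read from its probe set of highest mean, and genes with a mean log2 value below 5.24, the 40th percentile over probe sets, were dropped, leaving 13028. limma 3.58.1 (R 4.3.3) fitted 1 mean per genotype over the 9 arrays with a trended eBayes prior. P-values are two-sided and were adjusted by Benjamini-Hochberg over all 13028 genes. A gene is called where the adjusted p is below 0.05. The steps were tested on simulated data with independent noise and planted changes larger than those of the members. No spike-in group shift was simulated, so that test does not cover the small differences reported here or the spike-in groups. Python 3.11.15 with matplotlib 3.10.9 drew the plots.

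The spike-in groups were split at the widest gap (0.22) in the thr to dap log2 ratio and entered as a block. Blocked differences rest on HET replicate 1 and are less precise than those without the block. A call lost under the block therefore does not by itself show a smaller difference. The ratio was chosen with earlier results of these arrays known. The members, gene lists and motifs were likewise chosen with earlier results of these data known. Named members were those called, the 6 large-subunit and 4 small-subunit genes with the smallest p and the 4 with the largest positive difference between KO and WT, the 2 with the smallest p in each other comparison, the 4 with the strongest signals, those with opposed probe sets and 12 with a known role. From each list, called genes or otherwise the 2 with the smallest p were named, and Gfm1, Oxa1l, Mtif2, Mrps2, Mrpl1, Mrpl24 and Mrpl34 were chosen after their values were seen. The ranges by signal, the further probe sets and the split of the HET arrays were looked at after seeing the data. Same-numbered arrays of different genotypes did not deviate together (correlations from -0.043 to 0.046), so the replicate numbers do not pair them. Alternatives were quantile normalization, arrays shifted to the same median, pseudocounts of 1 and 64, no filter or the 60th percentile, averaged probe sets per gene, no intensity trend, only the 6 arrays compared, a block for the replicate number or the spike-in group, and 9 fits that each omit an array.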

Additional observations from a re-analysis of the deposited data

How the results depend on the processing

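The 4 members called lower between KO and WT were 0 with quantile normalization, with each array shifted to the same median, with no filter, with averaged probe sets per gene, without the intensity trend and with the spike-in group as a block. Fitted on only the 6 arrays compared they were 17, with all 4 among them. Leaving out an array gave 0 to 18 calls. With the replicate number as a block the count was 0 between KO and WT, and the medians did not move (-0.20, -0.13 and -0.040 for KO minus WT, HET minus WT and KO minus HET), but the numbers do not pair the arrays. The block changed no other count of members called. Over all genes the 211 calls between KO and WT became 127 with that block, 773 on the 6 arrays, 1 with the spike-in group as a block, 6 without the intensity trend, 7 with the mean of probe sets, 24 with each array at the same median and 85 with no filter. Leaving out an array gave 10 to 840 calls over all genes.

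The KO minus WT median was -0.13 with the mean of probe sets and -0.039 with the spike-in group as a block. The HET minus WT median was -0.054 with that block and within the first spike-in group. The KO minus HET median, -0.040 as reported, turned to 0.039 with each array at the same median and to 0.00077 with the spike-in group as a block, within the second spike-in group and without HET replicate 1. The HET minus WT median was the larger in size with the spike-in group as a block (-0.054 against -0.039 for KO minus WT) and with each array at the same median (-0.170 against -0.167). Members called lower between HET and WT were 0 to 11 when an array was left out. The other medians and counts kept their sign and side, 0 members were called higher in any of these alternatives and comparisons, and where a cause is not named it was not tested.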

Other observations

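Mrps11 and Mrpl46 are neighbours on chromosome 7 that start in opposite directions, and their RefSeq promoter windows on GRCm38.p6 overlap (chr7:78782881-78783180 on the plus strand and chr7:78783040-78783339 on the minus strand). The Mrps11 window holds the YY1 letters on the opposite strand and the Mrpl46 window none of the letters searched. The YY1 letters, at letters 143 to 151 of the Mrps11 window, lie just outside the shared part. That contrast therefore depends on where the Mrpl46 window ends. Their KO minus WT differences were -0.27 and -0.20, and their HET minus WT differences -0.29 and 0.063, so the pair stood apart in HET by values that were not tested against each other.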
